A study of Mus musculus with 25 samples.

Results

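The genes Stab2, Lyve1, Pecam1, Tie1, Kdr, Clec4g, Oit3, Gpr182, Fcgr2b and Flt4, which mark the endothelium of the liver sinusoid, were followed through 25 RNA libraries of sorted mouse hepatocytes. They were chosen by name as known markers of these cells, with earlier results of these data known. They are 10 of the 37117 gene symbols counted. Every one of the 10 passed the filter on low counts, which kept 12970 genes. The study raised the activity of the growth regulator Yap in hepatocytes in 2 ways and asked, per its title, how Hippo signalling bears on organ growth.

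The sinusoid is the capillary of the liver, and its endothelium lies between the blood and the hepatocytes. These cells have open pores and no continuous basement membrane, and they clear waste molecules from blood through scavenger receptors. The Hippo pathway restrains Yap: the kinases Lats1 and Lats2 phosphorylate Yap and keep it out of the nucleus. Hepatocytes themselves are not the usual source of the 10 transcripts.

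The mice were of 3 genotypes. ApoYap mice carry ApoE-rtTA, which places the doxycycline-dependent activator under an ApoE promoter, and TRE-hYAP, a human YAP transgene that this activator switches on. ApoYap libraries from 4 untreated samples (ApoYap ctrl) were set against 3 from mice given 0.2 mg/ml doxycycline in water with 2.5% sucrose for 1 week (ApoYap Dox). Mice with floxed Lats1 and Lats2 alleles gave 4 untreated libraries (Lats1/2 flox ctrl) and 3 taken 1 week after injection of an AAV8 virus with Cre under the hepatocyte promoter TBG (Lats1/2 KO). C57BL/6 mice, with neither allele, gave 4 untreated libraries (BL/6 ctrl), 4 after 1 week of the same doxycycline water (BL/6 Dox) and 3 taken 24 hours after the same virus (BL/6 AAV-Cre). The virus control therefore differs in time from the knockout. The labels give no age, and do not say that each library came from its own animal, so p-values measure the spread between these libraries. Livers were perfused and dissociated, cells were spun at low speed and sorted, and 500000 cells were lysed per library. The labels do not state the sorting gate.

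Libraries held 8107539 to 16515330 counts. Levels are counts scaled to library size (CPM, with TMM factors). As the kit reads 3′ ends, a CPM does not depend on transcript length. The 9 hepatocyte markers found in the table summed to 63237 CPM or more in the untreated, BL/6 Dox and BL/6 AAV-Cre libraries, where the 15 macrophage markers summed to at most 360.2 CPM. Lats1 lay between 2.97 and 5.10 CPM in Lats1/2 KO and between 12.3 and 14.9 CPM in its controls. Lats2 overlapped between these groups, at 7.70 to 17.8 and 12.9 to 13.7 CPM; whether the counted 3′ ends lie inside the deleted parts is not given. Mouse Yap1 does not report the human transgene. Ccn1, a classical Yap target, lay between 7.12 and 11.6 CPM without and between 153.8 and 186.7 CPM with Yap induction. For the knockout its controls held 5.52 to 9.77 CPM and the treated libraries 48.8 to 122.0 CPM.

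The genes lie on 7 chromosomes of the GRCm38 build, and GENCODE M21 lists each gene as protein coding. The endocytic receptor genes are Stab2 at chr10:86841198-87008025, Lyve1 at chr7:110850607-110863239, Fcgr2b at chr1:170958617-170976547 and the lectin gene Clec4g at chr8:3707064-3720651. The receptor tyrosine kinase genes are Kdr at chr5:75932827-75978458, Flt4 at chr11:49609263-49652739 and Tie1 at chr4:118471191-118490061. Pecam1 lies at chr11:106654217-106750628, Oit3 at chr10:59422958-59441778 and Gpr182 at chr10:127747276-127751732. Flt4 is on the plus strand and the other 9 genes on the minus strand. The 3′ end of Stab2 lies within 500 bases of the antisense gene Gm16268, which had at most 35 counts in a library. That of Gpr182 lies as near to Zbtb39 on the opposite strand, at 3 to 97 counts per library. The strand setting of the counting is not known, so Stab2 and Gpr182 are the 2 uncertain members.

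RefSeq sequences (GRCm38.p6) of the 250 bases upstream of the start site were at hand for 6 members: Fcgr2b, Tie1, Kdr, Clec4g, Stab2 and Flt4. Kdr and Clec4g are printed because they received the most counts of the 10 and because the share of Clec4g among them moved the most. Both are on the minus strand, written 5′ to 3′ along the gene, Clec4g from chr8:3720652-3720901 and Kdr from chr5:75978456-75978705. Capitals mark the letters AGGAAG on either strand (on the other strand they read CTTCCT). They are a core bound by ETS factors, which are common regulators of endothelial genes.
Clec4g: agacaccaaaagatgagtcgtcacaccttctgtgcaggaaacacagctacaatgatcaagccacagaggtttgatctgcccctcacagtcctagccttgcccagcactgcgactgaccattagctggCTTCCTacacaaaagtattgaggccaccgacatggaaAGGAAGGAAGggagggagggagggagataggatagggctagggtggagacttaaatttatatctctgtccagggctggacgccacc
Kdr: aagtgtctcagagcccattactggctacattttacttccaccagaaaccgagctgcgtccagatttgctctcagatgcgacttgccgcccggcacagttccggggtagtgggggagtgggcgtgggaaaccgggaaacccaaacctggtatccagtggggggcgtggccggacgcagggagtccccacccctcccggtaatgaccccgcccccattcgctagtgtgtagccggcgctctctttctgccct
Clec4g held 3 matches, a pair of them overlapping, and Kdr held none. Over the 6 sequences the ETS core was present in 3 (Tie1, Clec4g and Stab2), while 29.2% of 27025 genes with such a sequence had it. GGAATG, a core of the Yap partner TEAD, was in 0 of 6 and in 12.6% of all genes. The core of GATA factors, spelled AGATAA, was in 0 of 6 and in 10.3% of all genes. The SOX core searched was AACAATG, present in 0 of 6 and in 3.36% of all genes. Both strands were searched. These 4 strings were picked after 12 had been looked at in these 6 sequences; of the other 8, CGGAAG was found in Tie1 alone, as was ACAGGAA, and the rest in none. A match here describes letters and not a bound site.

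All 10 markers were higher after Yap induction, by 1.94 to 3.28 on the log2 scale, with a median of 2.86. Each passed the test (edgeR's quasi-likelihood test, Benjamini-Hochberg over 12970 genes, threshold 0.05), where 35.0% of all genes were called higher and the median of all genes was 0.068. Of the 10 differences, 0 lay above the 90th percentile of the log2 differences of all genes. For each of the 10, every ApoYap Dox library lay above every ApoYap ctrl library; 36.7% of all genes did so. In bulk RNA, more endothelial cells among those sorted and more RNA per cell cannot be told apart.

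Lyve1, a hyaluronan receptor, had the largest difference. It was at 7.70, 10.3, 13.3 and 10.8 CPM in ApoYap ctrl and at 78.2, 78.7 and 148.9 CPM in ApoYap Dox. The third treated library stood well above the others, and the lowest treated library was still far above the highest control. The log2 difference was 3.28 ± 0.47 (SE; adjusted p = 4.16e-06). Stab2, a scavenger receptor that takes up hyaluronan, was at 5.37, 7.46, 8.62 and 10.8 CPM in controls and at 60.3, 53.0 and 74.7 CPM with doxycycline, which is 2.97 ± 0.40 on the log2 scale (adjusted p = 1.19e-06). Fcgr2b, an inhibitory receptor for immunoglobulin that this endothelium uses to clear immune complexes, rose from 2.33 to 5.30 CPM in controls to 21.7 to 34.1 CPM, with a log2 difference of 2.81 ± 0.48 (adjusted p = 2.50e-05). Clec4g, a C-type lectin of the sinusoid, was at 13.5, 20.2, 27.8 and 32.3 CPM in controls. Its treated libraries held 80.2, 58.9 and 141.5 CPM. Its difference of 2.00 ± 0.49 (adjusted p = 0.0013) was, with that of Oit3, the smallest of the 10.

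Among the receptor tyrosine kinases, Kdr, the main receptor for VEGF-A, was at 16.2, 25.1, 30.0 and 47.1 CPM in controls and at 161.0, 148.0 and 239.9 CPM after induction. The groups were well apart, with a log2 difference of 2.63 ± 0.48 (adjusted p = 7.79e-05). Flt4, the receptor for VEGF-C, lay between 2.40 and 5.71 CPM in controls and between 28.3 and 46.7 CPM after induction, at a log2 difference of 3.17 ± 0.52 (adjusted p = 1.91e-05). Tie1, which modulates signalling by the angiopoietin receptor, had the smallest standard error, at 3.11, 6.12, 4.15 and 5.82 CPM in controls and 28.6, 26.3 and 45.8 CPM after induction. Its log2 difference of 2.81 ± 0.29 had the lowest adjusted p of the 10, 7.58e-09.

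Pecam1, an adhesion molecule at endothelial cell contacts, was at 3.89, 5.95, 10.3 and 7.72 CPM in controls and at 58.2, 53.1 and 83.1 CPM after induction, differing by 3.24 ± 0.45 in log2 (adjusted p = 2.68e-06). Oit3, a secreted or membrane protein with a zona pellucida domain, was at 6.22, 10.6, 11.8 and 11.7 CPM and then at 36.8, 28.6 and 50.0 CPM, differing by 1.94 ± 0.35 in log2 (adjusted p = 5.28e-05). Gpr182, an atypical chemokine receptor, was the least counted member, with 7 to 18 counts per control library. It stood at 0.494 to 1.80 CPM in controls and 4.48 to 11.6 CPM after induction, differing by 2.92 ± 0.70 in log2 (adjusted p = 8.65e-04). Scaling by library totals alone, which moved the median of all genes to 0.986, raised the differences of the 10 to between 2.86 and 4.21, and all 10 stayed called.

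**Figure D1:**
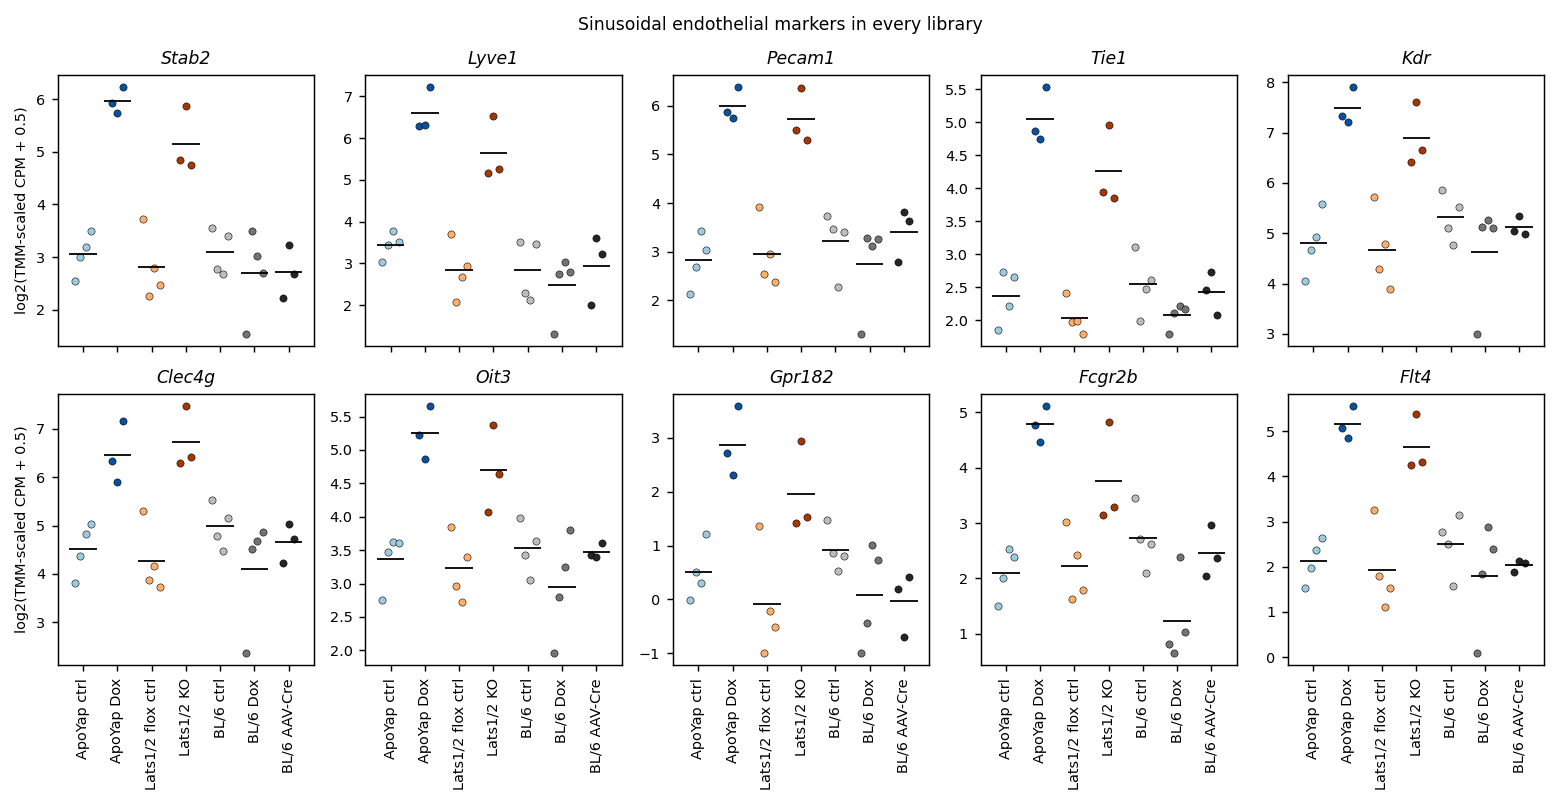
Level of each of the 10 markers in every library, as log2(TMM-scaled CPM + 0.5); each point is 1 library and each line a group mean of these values. In every panel the 3 ApoYap Dox and the 3 Lats1/2 KO libraries lie above the libraries of their own control group.

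The Lats1/2 knockout raised the same 10 markers, by 1.54 to 2.89 with a median log2 difference of 2.44. All 10 passed the test, where 20.6% of all genes were called higher and the median of all genes was −0.028. Of the 10 differences, 7 lay above the 90th percentile of the log2 differences of all genes. The 3 knockout libraries lay above the 4 flox controls for each of the 10, as they did for 20.9% of all genes. Gpr182 was separated by little, with 2.16 CPM in the lowest knockout library and 2.08 CPM in the highest control.

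Lyve1 was at 12.6, 3.75, 5.84 and 7.20 CPM in the flox controls and at 35.4, 91.3 and 37.6 CPM in the knockout, differing by 2.89 ± 0.48 in log2 (adjusted p = 1.10e-04). Kdr was at 52.1, 19.0, 27.0 and 14.4 CPM and then 84.7, 195.1 and 100.6 CPM, differing by 2.17 ± 0.48 in log2 (adjusted p = 0.00146). Clec4g was at 39.1, 14.1, 17.5 and 12.8 CPM and then 77.5, 177.0 and 85.0 CPM, differing by 2.44 ± 0.50 in log2 (adjusted p = 7.49e-04). In each of these 3 genes the first control and the second knockout library were the highest of their groups. Pecam1 (2.79 ± 0.45), Flt4 (2.71 ± 0.53), Tie1 (2.44 ± 0.30) and Stab2 (2.40 ± 0.40) also rose, with adjusted p between 1.43e-06 and 4.26e-04. Oit3 had the smallest difference, 1.54 ± 0.36 (adjusted p = 0.00186), from 6.07 to 13.8 CPM in controls to 16.3 to 40.8 CPM.

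The knockout calls of Fcgr2b and Gpr182 rested on 1 library. Fcgr2b was at 7.57, 2.61, 4.88 and 2.96 CPM in controls and at 8.30, 27.8 and 9.28 CPM in the knockout, so that the log2 difference came to 1.75 ± 0.48 (adjusted p = 0.0065). With Lats1/2 KO 2 left out it stood at 0.97, with an adjusted p of 0.129. Gpr182 was at 2.08, 0, 0.357 and 0.197 CPM in controls and 2.16, 7.18 and 2.39 CPM in the knockout, with a log2 difference of 2.55 ± 0.77 (adjusted p = 0.0115). Leaving out Lats1/2 KO 2 gave Gpr182 a value of 1.78 (adjusted p = 0.117), and 8 of the 10 markers were then called. Without Lats1/2 flox ctrl 1 that value was 4.34. Flt4 then stood at 3.48.

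**Figure D2:**
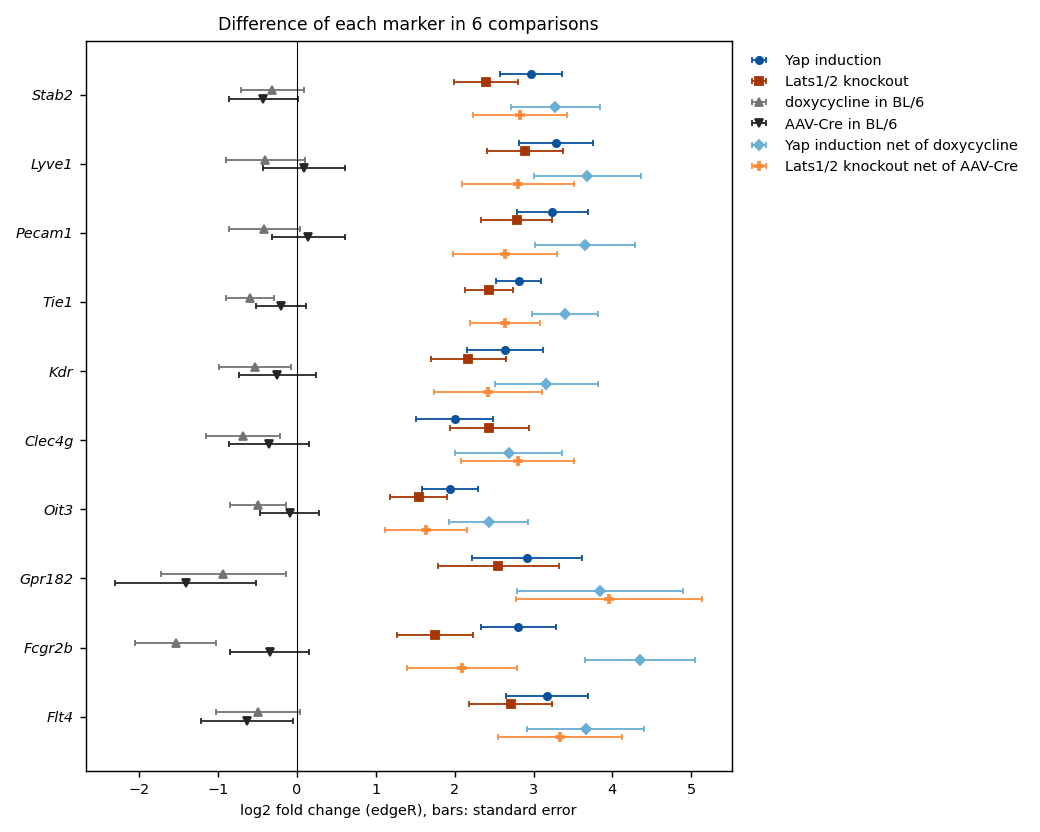
Log2 fold change of each marker in 6 comparisons, with bars of 1 standard error from edgeR. Yap induction, the knockout and the values net of the BL/6 controls all lie above 0, while all 10 doxycycline values in BL/6 lie below 0 without passing the test.

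Doxycycline in BL/6 mice, which lack the transgene, called 0 of the 10 markers, against 0.123% of all genes called in either direction. The 10 differences were all negative, with a median of −0.51, where the median of all genes was 0. Of these, 1 (Fcgr2b, −1.54 ± 0.51) had an unadjusted p under 0.05 (adjusted p = 0.235), and DESeq2 and limma voom also called 0. Fcgr2b was at 10.5, 6.09, 3.77 and 5.63 CPM in BL/6 ctrl and at 1.27, 1.07, 4.72 and 1.55 CPM in BL/6 Dox, so the groups overlapped through 1 library. BL/6 Dox 1 was the lowest of its group for 9 of the 10, with 26.7 CPM over all markers against 97.5 to 112.8 CPM in the others.

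The virus in BL/6 mice called 0 of the 10 as well, against 0.301% of all genes, with a median log2 difference of −0.30 and 0 at an unadjusted p under 0.05 (DESeq2 and limma voom also called 0). The largest was that of Gpr182, at 0.641, 0.118 and 0.837 CPM against 0.942 to 2.28 CPM in BL/6 ctrl, −1.41 ± 0.89 (adjusted p = 0.521). Untreated ApoYap and untreated BL/6 libraries differed in 0 of the 10, against 0.439% of all genes, with 0 at an unadjusted p under 0.05. Untreated flox and BL/6 libraries also differed in 0 of the 10, against 4.12% of all genes, with 1, Tie1, at an unadjusted p under 0.05 (−0.63 ± 0.30, adjusted p = 0.265). DESeq2 and limma voom called 0 of the 10 in both comparisons of untreated libraries. The summed level of the markers in the untreated libraries of the 3 genotypes ranged over 61.2 to 180.9 CPM.

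Net of the doxycycline difference in BL/6, Yap induction raised all 10 markers, with a median of 3.52 and a range of 2.43 to 4.35, where 26.7% of all genes were called higher. Fcgr2b had the largest net difference, 4.35 ± 0.70 (adjusted p = 2.07e-05), and Oit3 the smallest, 2.43 ± 0.50 (adjusted p = 3.11e-04). Without BL/6 Dox 3 the value of Fcgr2b was 5.15 and that of Gpr182 was 4.54 in place of 3.85. Leaving out BL/6 Dox 1 and 2 together gave Gpr182 a net value of 3.05. Net of the virus, the knockout raised all 10, with a median of 2.72, where 13.0% of all genes were called higher. Tie1 had the lowest adjusted p, 1.95e-04 (2.64 ± 0.44), and Fcgr2b the highest, 0.0340 (2.09 ± 0.70). Without Lats1/2 KO 2 the count fell to 6 of 10, as Kdr, Oit3, Gpr182 and Fcgr2b lost the call, Fcgr2b at 1.32 and Gpr182 at 3.19. The net calls of Oit3 and Fcgr2b did not rest on that library alone: each was lost in 6 of the 14 fits that left out 1 library. Without BL/6 ctrl 1, for example, Oit3 was at 1.45 (adjusted p = 0.0633) and Fcgr2b at 1.74 (adjusted p = 0.0887). Both were also lost with no filter on low counts (adjusted p = 0.0555 and 0.0700). Leaving out Lats1/2 flox ctrl 1 moved the net value of Gpr182 from 3.96 to 5.75 and that of Flt4 from 3.34 to 4.11. With the replicate number as a block, 9 of 10 were called and Fcgr2b was not (2.10, adjusted p = 0.053).

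The responses to the knockout and to Yap induction were not told apart for any marker: 0 of 10 passed the test of the difference, against 29.8% of all genes, with 0 at an unadjusted p under 0.05 (DESeq2 and limma voom also called 0). The knockout response was the smaller in 9 of 10, with a median of −0.42. Clec4g was the exception at 0.44 (95% interval −1.02 to 1.89). Fcgr2b had the largest gap, −1.06 (−2.47 to 0.35), and without Lats1/2 KO 2 it was −1.83 with an adjusted p of 0.030. Tie1 had the narrowest interval, −1.24 to 0.50, which still holds differences of more than 2-fold.

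The makeup of the marker counts was compared as each gene's share of the summed counts of the 10, a measure that library scaling does not touch. Those sums ranged from 189 counts in a BL/6 Dox library to 18160 in an ApoYap Dox library. The share of Clec4g was 22.7% ± 1.05 (SD, n = 4) in ApoYap ctrl and 14.0% ± 2.20 (n = 3) in ApoYap Dox, with no overlap. In the knockout it was 23.6% ± 0.16 (n = 3) against 22.0% ± 1.17 (n = 4) in its controls. Oit3 held 10.0% ± 1.16 in ApoYap ctrl and 5.96% ± 0.44 in ApoYap Dox, and 10.8% ± 3.89 and 5.73% ± 0.97 in the flox controls and the knockout. Lyve1 went from 10.7% ± 2.04 to 15.5% ± 1.64 with Yap induction, and Flt4 from 3.93% ± 0.19 to 5.59% ± 0.24. Pecam1 went from 8.45% ± 0.64 to 11.8% ± 1.56 in the knockout, and Fcgr2b from 4.86% ± 0.83 to 2.94% ± 0.66. The lowest p of a two-sided exact permutation test was 0.0286, the smallest that 3 against 4 libraries can give here, and after adjustment over the 20 tests the lowest was 0.0952. None of the 20 shares passed, and with so few libraries 1 gene alone could not have passed after adjustment. A count per 1000 pan-endothelial counts had been tried first; it was higher in the treated group in 17 of 20 tests, with a lowest adjusted p of 0.0635 by the same exact test and none passing. It was set aside after it was seen, because that list holds genes such as S1pr1 that did not rise with the others.

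**Figure D3:**
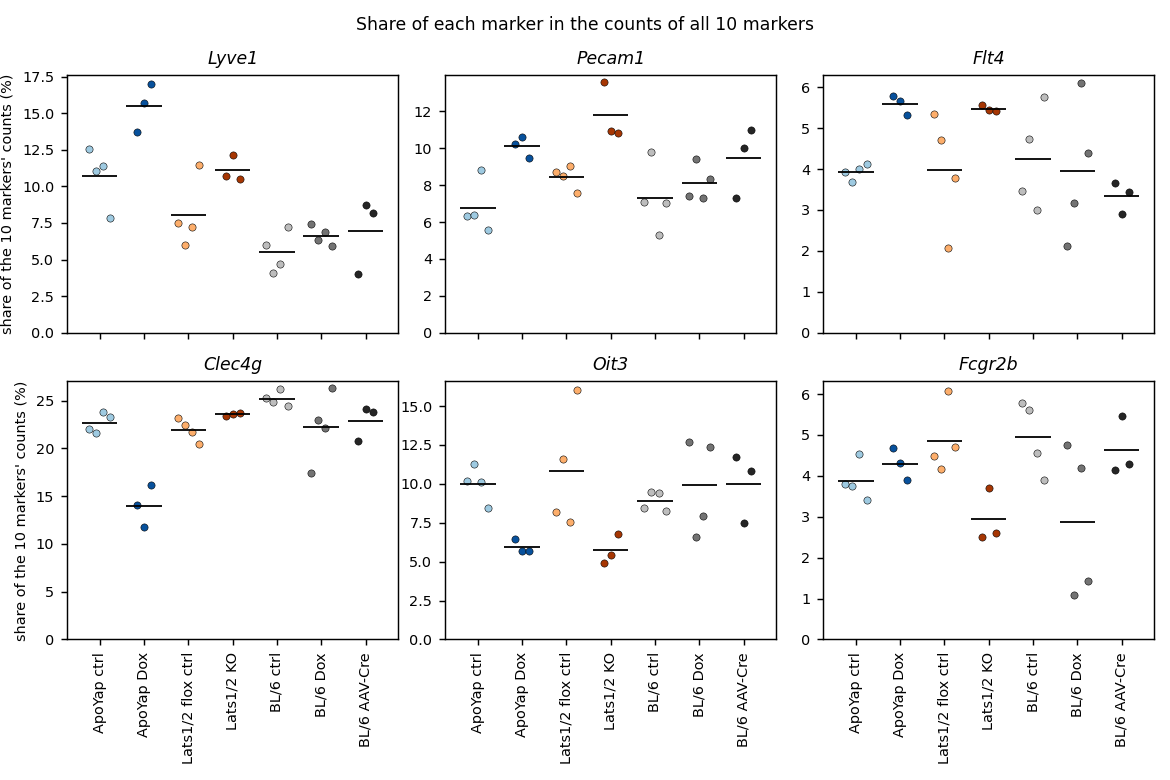
Share of 6 markers in the counts of all 10, in percent; each point is 1 library and each line a group mean. Clec4g lies at 14.0% in ApoYap Dox, below every other group's mean, and Oit3 is low in both ApoYap Dox and Lats1/2 KO.

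Within groups the markers rose and fell together. ApoYap Dox 3, Lats1/2 KO 2 and Lats1/2 flox ctrl 1 were the highest of their groups for all 10 markers, and ApoYap ctrl 1 was the lowest for all 10. Over the 25 libraries, Pearson's r between pairs of markers ranged from 0.828 to 0.973, with a median of 0.918 over 45 pairs; after group means were removed it ranged from 0.533 to 0.963, with a median of 0.775. These values describe points that share a library and its scaling. Clec4g followed the other 9 most closely within groups (r = 0.966) and Tie1 least (r = 0.700).

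The 6 genes most like the markers' mean profile over the 25 libraries were Itga9 (r = 0.985), Gpihbp1 (0.984), Cdh5 (0.979), Mmrn2 (0.977), Aqp1 (0.977) and Fyn (0.976). Cdh5 and Mmrn2 were on the pan-endothelial list, and Aqp1 was on the further sinusoidal list given below. After removal of group means the 6 were Ptprb (0.979), Adgrf5 (0.977), Cdh5 (0.972), Csf1r (0.969), Bmp2 (0.965) and Tinagl1 (0.965). Ptprb and Cdh5 were on the pan-endothelial list and Bmp2 on the further sinusoidal list. Csf1r is a macrophage receptor, so the libraries rich in the endothelial markers within a group were also rich in a macrophage transcript.

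Other endothelial lists moved in the same direction. Of all genes, 35.0% were called higher with Yap induction and 20.6% with the knockout. Of 14 tested genes of a further sinusoidal list, 14 rose with Yap induction (median 2.46) and 13 with the knockout (median 2.09). Its named members were Maf (3.55 and 1.54), a transcription factor, Dab2 (4.56 and 2.55), an endocytic adaptor, and the scavenger receptors Mrc1 (4.35 and 1.96) and Stab1 (3.52 and 2.42). Without Lats1/2 KO 2 the knockout count of this list was 10 of 14, and Mrc1 was at 1.34 (adjusted p = 0.0554). Of 20 pan-endothelial genes, 18 rose and 1 fell with Yap induction (median 3.16), and 17 rose with the knockout (median 2.30; 14 without Lats1/2 KO 2). Among them were the junction genes Icam2 (3.91 and 2.64) and Cdh5 (4.34 and 2.72), the small GTPase partner Rasip1 (4.19 and 2.90) and the transcription factor Erg (3.20 and 2.06). The gene that fell was S1pr1 (−0.96), named after its value was seen; with library totals alone 19 of the 20 rose and 0 fell. Large vessel and continuous capillary genes rose in 8 of 9 with Yap induction (median 1.52) and in 4 of 9 with the knockout (median 1.60). The knockout count was 7 of 9 with library totals alone. The shares of all genes called with library totals alone, which moved their median to 0.986 and to 0.442, are not given here. Both main counts of this list include Cd34 (6.74 and 3.65). Cd34 averaged 0.0761 CPM in ApoYap ctrl, so its fold rests on very few control counts. It may have passed the filter only through the groups where it is high, and its rises are not a test.

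The counts for genes around the receptors depended on the scaling. Of 8 tested ligands and co-receptors of Kdr, Flt4 and the Tie receptors, 2 rose and 2 fell with Yap induction, and 0 rose and 1 fell with the knockout. Of all genes, 35.0% rose and 32.0% fell with Yap induction, and 20.6% rose and 17.4% fell with the knockout. The counts of the 8 were thus below those shares. With library totals alone, which moved the median of all genes to 0.986 and to 0.442, 5 rose and 0 fell with Yap induction and 6 rose and 0 fell with the knockout. The share of all genes called under that scaling is not given here. Vegfa, the ligand of Kdr that hepatocytes make, fell by 1.20 (adjusted p = 1.31e-05) and by 0.65 (adjusted p = 0.0123), but with library totals alone the values were −0.28 and −0.18 and neither was called. Its knockout call was also lost without Lats1/2 KO 2 (−0.63, adjusted p = 0.0502) and without Lats1/2 KO 3 (−0.54, adjusted p = 0.0642). Vegfb, a ligand of the VEGF receptor Flt1, was at −0.36 with Yap induction (adjusted p = 0.0490) and at 0.56 with library totals alone (adjusted p = 0.00167), so its direction turned. In the knockout it was at 0.20 (adjusted p = 0.352), and at 0.66 with library totals (adjusted p = 9.68e-04). Nrp2, a co-receptor of Flt4, rose by 2.97 with Yap induction, and its knockout value of 0.88 did not pass (adjusted p = 0.0979), though with library totals it did (1.37, adjusted p = 0.0139). Angpt1, a ligand of the Tie2 receptor, rose by 2.58 with Yap induction, and its knockout value was 2.11 (adjusted p = 0.0749), or 2.57 with library totals (adjusted p = 0.0253). Prox1, the only tested gene of 4 lymphatic markers and also a hepatocyte transcription factor, fell by 0.85 with Yap induction, a direction that turned with library totals (0.062) and a call that was lost without ApoYap Dox 3 (−0.66). Of 5 tested hyaluronan genes, 3 rose and 1 fell in each model. Cd44, a hyaluronan receptor also found on leukocytes, rose by 6.02 and 3.18. The gene that fell was Hyal1, a lysosomal hyaluronidase. Its difference was −1.98 with Yap induction (adjusted p = 1.74e-10), called in 14 of 14 alternatives, and −0.41 with the knockout (adjusted p = 0.0417), called in 5 of 14.

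**Figure D4:**
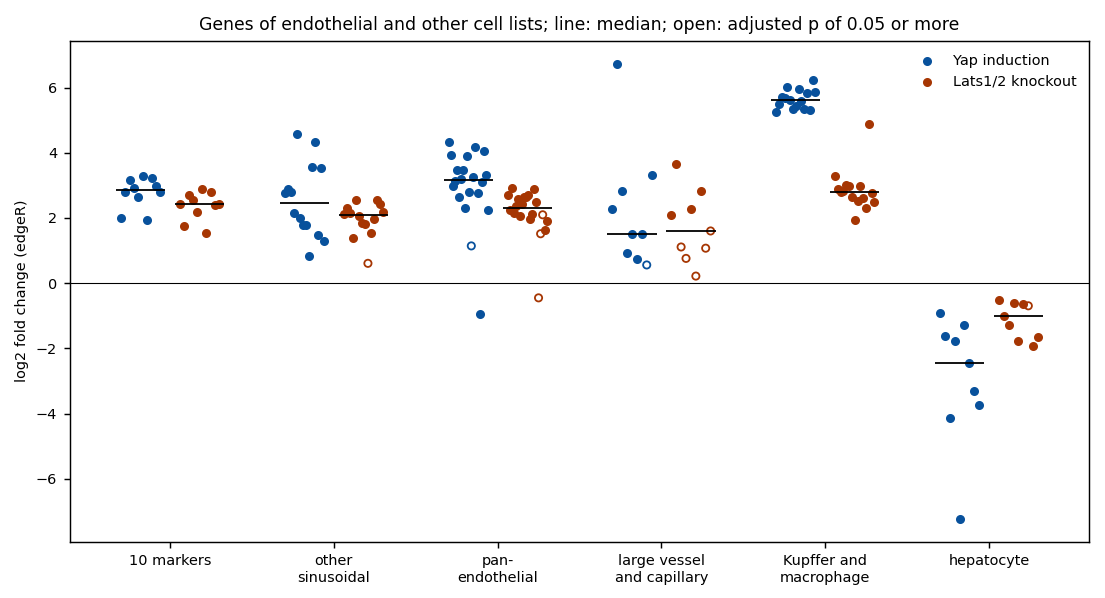
Log2 fold changes of the genes of 6 lists after Yap induction (blue) and Lats1/2 knockout (brown); filled points passed an adjusted p of 0.05 and lines are medians. The medians of the 3 sinusoidal and pan-endothelial lists lie between 2.09 and 3.16, the macrophage medians at 5.61 and 2.80, and the hepatocyte medians below 0.

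Markers of other cells were read beside the 10. All 15 Kupffer cell and macrophage markers rose with Yap induction (median 5.61), against 35.0% of all genes. All 15 markers also rose with the knockout (median 2.80), against 20.6% of all genes. Their summed level was 106.8 to 240.2 CPM in ApoYap ctrl, 8049 to 13065 CPM in ApoYap Dox, 109.0 to 326.7 CPM in the flox controls and 815.5 to 1935 CPM in the knockout. The 10 endothelial markers summed to 61.2 to 138.6, 501.0 to 876.4, 62.7 to 168.4 and 330.7 to 750.8 CPM in the same groups. Lats1/2 KO 2 and ApoYap Dox 3 were the highest of their groups for both sums. Macrophages can also express Fcgr2b, Lyve1, Mrc1, Stab1 and Dab2, and their part in these values was not tested. For the macrophage list, 14 of 15 genes were lower in the knockout response than in the Yap response (median −2.84). Of all genes, 29.8% were called in either direction. Of the 10 endothelial markers 0 passed that test (median −0.42), with intervals that still hold differences of more than 2-fold. Of the further sinusoidal list 3 of 14 were lower (median −0.61). Of the pan-endothelial list 0 of 20 were called (median −1.08).

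The 10 stellate cell and fibroblast markers rose in 4 with Yap induction (median 1.09), a share near the 35.0% of all genes called higher, and in 9 with the knockout (median 2.48), against 20.6% of all genes. The Yap count was 8 with library totals alone, 6 with the replicate number as a block, and 2 without ApoYap ctrl 1 or without ApoYap Dox 3. Of 6 neutrophil markers 4 were tested, and of 6 platelet markers 3. The neutrophil markers rose in 4 of 4 and in 2 of 4, and the platelet markers in 3 of 3 and in 1 of 3. Of all genes, 35.0% and 20.6% were called higher. Both knockout counts moved by 1 gene with library totals and when some single libraries were left out. The neutrophil and platelet markers summed to at most 1.35 and 3.39 CPM in ApoYap ctrl, so their rises rest on few control counts. In ApoYap Dox the sums were 13.1 to 31.1 and 64.0 to 80.7 CPM. Some of these genes may have passed the filter only through the groups where they are high, and these counts are not a test. Cd79b, the 1 tested gene of 4 B cell markers, had a log2 difference of 5.22 with Yap induction. Those 4 markers summed to at most 0.519 CPM outside ApoYap Dox and to 1.63 to 2.99 CPM in it. Cd79b thus passed the filter only through the group where it is high, and its rise is not a test. Of 6 cholangiocyte markers, Krt19, Krt7, Epcam and Cftr did not pass the filter, at 27 to 68 counts over all libraries. Of the 2 tested, Sox9 and Spp1, 1 rose with Yap induction and 2 with the knockout, against 35.0% and 20.6% of all genes. No gene of 6 T and NK cell markers passed the filter. All 9 hepatocyte markers fell with Yap induction (median −2.44), where 32.0% of all genes were called lower, and 8 of 9 with the knockout (median −0.997), where 17.4% were. With library totals alone 8 and 5 of the 9 fell. The shares of all genes called under that scaling are not given for any count of this paragraph. Their sums were 25388 to 35696 CPM in ApoYap Dox and 46112 to 51068 CPM in the knockout. The part of these cell types in the endothelial values was not tested.

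**Figure D5:**
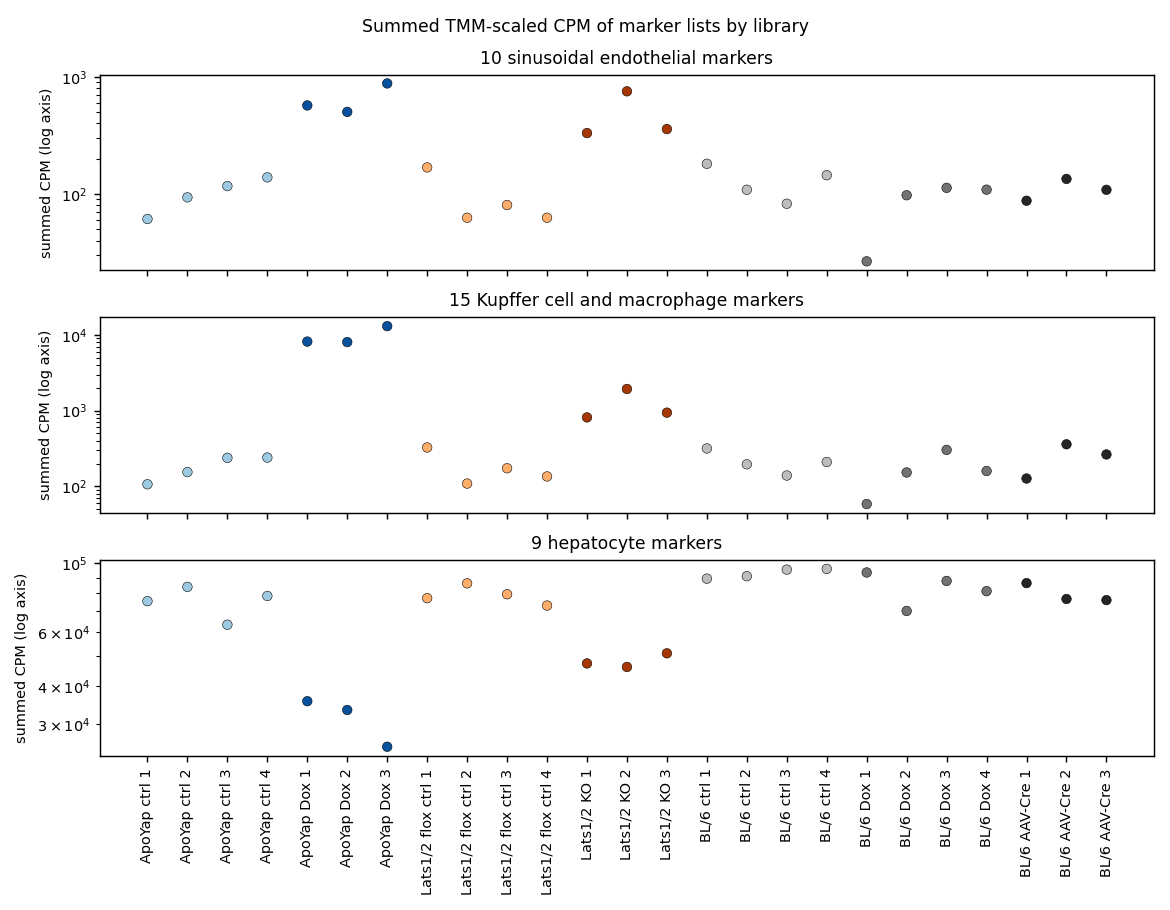
Summed TMM-scaled CPM (log axes) of the 10 endothelial, 15 macrophage and 9 hepatocyte markers in each of the 25 libraries, 1 point per library, coloured by group. The endothelial and macrophage sums are high in the same 6 libraries, ApoYap Dox and Lats1/2 KO, in which the hepatocyte sums are lowest.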

How the data were processed

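The data were RNA counts from 25 libraries of sorted mouse hepatocytes in 7 groups. Libraries were prepared with QuantSeq 3′ mRNA-Seq FWD, per the labels' protocols. The submitters' processing notes name FastQC, cutadapt, STAR 2.6.1d and the mouse build mm10 (GRCm38). How reads were counted, against which annotation and with which strand setting is not given in the sources used here. The authors deposited raw counts, whole numbers per gene symbol and library with no normalization. No molecular identifiers are named. The printed standard errors and 95% intervals come from the fit and include the spread between libraries. The lowest chi-square statistic per degree of freedom between replicates was 7.69, so no pair looked like 1 library.

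The main test was edgeR 4.0.16 in R 4.3.3, with filterByExpr by group (minimum count 10, minimum total 15), TMM scaling, and a robust quasi-likelihood fit with 1 mean per group over all 25 libraries. Benjamini-Hochberg adjustment covered the 12970 genes of each contrast, at a threshold of 0.05. Standard errors were derived from the F statistic and the log2 fold change. In counts drawn with known changes over 12970 genes, the test recovered 52% of 2-fold and 80% of 4-fold changes for Yap induction, and 55% and 76% for the knockout. Each fold was given to 100 genes, with 2 false calls for Yap induction and 8 for the knockout. The data had 8684 and 4926 genes called, so the draw does not test the scaling under so broad a change. A count was worth 0.0361 to 0.141 CPM. Alternatives were DESeq2 1.42.0, voom with quality weights (limma 3.58.1), RLE scaling, library totals, no filter, only the groups compared, a replicate block, an adjusted p under 0.01, each library left out and BL/6 Dox 1 and 2 left out together.

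The 10 markers and the other gene lists were chosen with earlier results of these data known. All 10 were named in every comparison; of each other list its counts, its median and up to 4 genes with the smallest p for Yap induction could be named, and the 6 genes most like the markers over libraries. The relative measures and the upstream strings were chosen after values were seen: 2 relative measures were tried, and 12 strings searched. The settings tried for the markers were also applied to the counts of the other lists after their main counts were seen. Levels of Lats1, Lats2, Yap1, Ccn1 and Ccn2 were read as a check of the labels, also without a prior rule. Coordinates came from GENCODE M21 (GRCm38) and upstream sequences from RefSeq (GRCm38.p6), which matched 6 of the 10; for genes with several start sites the share over all genes used the first listed.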

Additional observations from a re-analysis of the deposited data

Results flagged for a closer look

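Of 44 sets of 4 libraries examined (10 markers and their sum in each of 4 groups), 4 held a library far from the other 3 on the CPM scale. The rule flags about 1 in 20 sets of independent, normal values. These sets are not independent, as the markers of a library rose and fell together and the sum holds all 10. The 4 flags are therefore not compared with that rate. Pecam1 was at 1.97 CPM in BL/6 Dox 1, against 8.21 to 9.17 CPM in the other BL/6 Dox libraries. Kdr was at 7.47 CPM in the same library, against 33.7 to 37.9 CPM. Fcgr2b was at 4.72 CPM in BL/6 Dox 3, against 1.07 to 1.55 CPM. The summed level of the 10 markers was 168.4 CPM in Lats1/2 flox ctrl 1, against 62.7 to 80.5 CPM in the other flox controls. These libraries entered every comparison, and their part in the results was measured by leaving each out.

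The response to doxycycline differed between ApoYap and BL/6 mice for all 10 markers by edgeR's test of the difference. On the log2 scale the excess in ApoYap was 3.28 for Stab2, 3.68 for Lyve1, 3.65 for Pecam1, 3.40 for Tie1, 3.16 for Kdr, 2.69 for Clec4g, 2.43 for Oit3, 3.85 for Gpr182, 4.35 for Fcgr2b and 3.66 for Flt4. The response to the virus differed between flox and BL/6 mice for all 10 by the same test, although the times after injection were 1 week and 24 hours. That excess was 2.83 for Stab2, 2.81 for Lyve1, 2.64 for Pecam1, 2.64 for Tie1, 2.42 for Kdr, 2.80 for Clec4g, 1.64 for Oit3, 3.96 for Gpr182, 2.09 for Fcgr2b and 3.34 for Flt4. Genotype and time cannot be told apart in the latter.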

How the results depend on the processing

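For the 10 markers, all 140 alternative values for Yap induction and all 230 net of doxycycline kept their direction and call. For the knockout 137 of 140 did: Gpr182 lost its call with only the groups compared (2.62, adjusted p = 0.065), and Gpr182 and Fcgr2b without Lats1/2 KO 2. Leaving out 1 library at a time gave 8 to 10 markers called for the knockout, 6 to 10 net of the virus, 0 to 1 for the knockout less Yap induction, and 10 for Yap induction. Net of the virus, 193 of 210 values kept the call and 17 lost it, in Oit3, Fcgr2b, Kdr and Gpr182; 6 of 10 passed an adjusted p under 0.01. Replicate numbers did not pair the libraries (same-numbered deviations correlated at 0.103, 0.052 and 0.164 in the Yap groups and at −0.126, −0.240 and 0.022 in the Lats1/2 groups). With the replicate block the genes called went from 8684 to 8544 (Yap induction) and from 4926 to 4724 (knockout), and among the markers 1 call, that of Fcgr2b net of the virus (2.10), was lost. Signs turned in values that had passed no test, except Prox1 and Vegfb for Yap induction and Hyal1 for the knockout, and the cause was not tested. With library totals these were Prox1 (0.062 with Yap induction and 0.095 in the knockout), Vegfb for Yap induction (0.56), Hyal1 for the knockout (0.046) and Clec4g for the knockout less Yap induction (−0.0017). With voom Gpr182 for the knockout less Yap induction was 0.46, and without BL/6 Dox 1 and 2 Flt4 for doxycycline in BL/6 was 0.076. With 1 library left out at a time, the knockout less Yap induction spanned −1.14 to 1.43 for Gpr182, −0.97 to 0.0015 for Lyve1, −0.85 to 0.023 for Pecam1, −0.91 to 0.025 for Kdr, −0.92 to 0.32 for Flt4 and −0.034 to 0.93 for Clec4g. The virus in BL/6 spanned −0.38 to 0.062 for Tie1, −0.23 to 0.096 for Oit3, −0.67 to 0.0036 for Fcgr2b, −0.27 to 0.44 for Lyve1 and −0.085 to 0.40 for Pecam1. Untreated ApoYap against BL/6 spanned −0.25 to 0.11 for Stab2, −0.41 to 0.015 for Tie1 and −0.33 to 0.0038 for Oit3, and untreated flox against BL/6 −0.42 to 0.23 for Lyve1. Depth limits Gpr182 most, at 0 to 19 counts per flox control.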
